A study of Caenorhabditis elegans with 2 samples.

Results

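One-sided promoter peaks are reproducible LIN-39 ChIP-seq peaks on the autosomes of Caenorhabditis elegans whose summit lay beside the start of a protein-coding gene on 1 side only. A summit qualified if a protein-coding start had it within its window, which reached 2000 bp upstream and 500 bp downstream. Summits with a minus-strand start to the left and a plus-strand start to the right, each within 2000 bp, were left out. The rule selected 538 peaks, 36.2% of the optimal list, the reproducible set made from both replicates together. They were 43.01% of the 1251 autosomal peaks (exact binomial 95% interval 40.2 to 45.8%), on positions that make up 36.2% of autosomal bases. The rule used position alone, not the strength of the peaks.

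The study profiled DNA bound by eGFP-tagged LIN-39 in whole first-stage (L1) larvae by chromatin immunoprecipitation and sequencing. There was 1 group of 2 biological replicates, each of mixed sex, of strain OP18, which carries the mutation unc-119(ed3) III and the integrated transgene wgIs18. The tagged protein therefore came from a transgene, and all cell types of the larva were pooled. Each replicate was given as a list of 30000 ranked regions. The lists hold no read numbers, so the depth is unknown, and no list from larvae without the transgene was analysed here.

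LIN-39 is a Hox protein of the mid-body, known for its roles in migrating neuroblasts, in motor neurons of the ventral cord and in the cells that form the vulva. Hox proteins bind short AT-rich sequences, often together with PBC proteins such as CEH-20, with which they recognise a joint site. In C. elegans many genes lie in operons, where 1 promoter drives a run of close genes on the same strand, and the downstream messages receive the SL2 spliced leader from small SL2 RNAs.

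Some of the strongest members shared a short run of bases at the summit. Among the 12 strongest members on chromosomes II to V whose summit windows lay outside all exons, 6 held CGCCAGCA or its reverse complement within 50 bp of the summit, and 7 of the 12 are shown, 5 with the run and 2 without it. Each runs 50 bp to either side of the summit, read on the strand of the gene in WBcel235 (ce11), with CGCCAGCA and CTGCGTCTC or their reverse complements in capitals.
rpl-3, chrIII:3867519-3867619, plus strand: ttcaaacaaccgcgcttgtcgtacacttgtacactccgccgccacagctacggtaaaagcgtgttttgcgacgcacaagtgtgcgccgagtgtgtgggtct
eelo-2, chrIV:17249845-17249945, plus strand: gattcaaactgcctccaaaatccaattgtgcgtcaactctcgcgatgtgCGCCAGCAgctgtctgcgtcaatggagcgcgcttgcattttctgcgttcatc
cox-5A, chrIII:12905140-12905240, plus strand: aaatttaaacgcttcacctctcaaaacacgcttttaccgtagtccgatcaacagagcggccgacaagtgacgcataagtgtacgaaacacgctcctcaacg
ddp-1, chrIII:1859687-1859787, plus strand: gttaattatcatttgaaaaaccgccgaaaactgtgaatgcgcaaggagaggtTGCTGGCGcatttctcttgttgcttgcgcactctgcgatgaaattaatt
C34C12.8, chrIII:3460202-3460302, plus strand: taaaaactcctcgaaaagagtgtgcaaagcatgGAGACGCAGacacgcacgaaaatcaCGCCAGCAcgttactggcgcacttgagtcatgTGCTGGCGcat
cdk-5, chrIII:13466366-13466466, minus strand: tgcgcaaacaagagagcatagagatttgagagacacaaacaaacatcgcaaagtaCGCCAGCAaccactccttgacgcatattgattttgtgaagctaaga
dnj-9, chrII:4851776-4851876, plus strand: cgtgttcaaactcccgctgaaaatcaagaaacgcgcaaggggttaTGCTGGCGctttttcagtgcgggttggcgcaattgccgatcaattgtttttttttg

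Both motifs were chosen after these sequences had been seen, from among several tried, so their counts are descriptions. CGCCAGCA, sought on both strands within 100 bp of the summit, was present in 36 of the 538 members (6.69%, exact binomial 95% interval 4.73 to 9.14%). It was present in 2 of 1076 flanking windows centred 1000 bp to either side (0.186%) and in 0.386% of the windows centred 200 bp upstream of the 12167 autosomal starts at which such a summit would count as one-sided, called open starts from here on. Of its 39 matches in the members, 24 lay within 20 bp of the summit. With the members split into 4 groups of like size by the signal value, the authors' score for a peak, the run was present in 19 of 134, 8 of 135, 9 of 134 and 0 of 135 members from the strongest to the weakest. The run was picked from strong peaks, so its count among the strongest is not independent of that choice. The median signal was 137.4 in members with it and 81.6 in the rest.

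CGCCAGCA was as frequent in classes of peaks that had not been used to choose it. It was present in 6.72% of the 402 autosomal peaks between divergent starts and in 6.74% of the 89 one-sided promoter peaks on X. In the 311 autosomal peaks outside promoter windows it was present in 2 (0.643%, interval 0.0780 to 2.30%), and the difference from the members was not tested. CTGCGTCTC was present in 74 members (13.8%), against 1.301% of flanks and 1.93% of open starts. Unlike CGCCAGCA it was also present in 15.4% of the peaks outside promoter windows. Both runs were present together in 5 members, a count not tested against what their separate shares would give.

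Many peaks of cytosolic ribosomal protein genes held another run, GGTCTC. The 4 examples were taken, because they hold it, from the strongest ribosomal members on the same chromosomes, run 50 bp to either side of the summit, outside all exons, and carry GGTCTC in capitals.
rpl-29, chrIV:13881898-13881998, plus strand: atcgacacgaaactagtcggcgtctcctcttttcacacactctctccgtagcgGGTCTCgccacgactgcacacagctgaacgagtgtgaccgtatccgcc
rpl-38, chrV:15511754-15511854, plus strand: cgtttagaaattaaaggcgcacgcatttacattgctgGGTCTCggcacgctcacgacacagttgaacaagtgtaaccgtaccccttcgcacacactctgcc
rpl-23, chrIII:5706401-5706501, minus strand: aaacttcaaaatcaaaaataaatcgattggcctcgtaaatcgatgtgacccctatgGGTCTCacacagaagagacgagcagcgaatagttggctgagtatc
rps-4, chrIV:7084891-7084991, minus strand: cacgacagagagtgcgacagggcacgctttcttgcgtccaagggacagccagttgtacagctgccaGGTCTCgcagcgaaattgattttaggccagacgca

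GGTCTC was again chosen after the sequences were seen. It was present within 100 bp of the summit in 11 of the 18 ribosomal members (61.1%, interval 35.8 to 82.7%) and in 40 of the other 520 members (7.69%). It was present in 6.599% of flanks and 5.33% of open starts, and in 15.7% of divergent peaks and 13.5% of one-sided X peaks. The run was picked from the ribosomal peaks, so their count restates that choice in part. None of the 18 ribosomal members held CGCCAGCA, which allows a share of up to 18.5%.

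The joint Hox and PBC site TGATNNAT showed no such concentration at these summits. It was present within 100 bp of the summit in 83 of 538 members (15.4%, interval 12.5 to 18.8%), in 14.6% of flanks and in 16.8% of open starts. TAGTNNAT, a rearranged form of the site, was present in 5.58% of members, 7.99% of flanks and 9.39% of open starts. TGATNNAT was not tested against it. Median GC content was 39.3% at members, 36.3% in flanks and 33.3% at open starts, and no share was adjusted for it. The members fell between the autosomal peaks outside promoter windows, where TGATNNAT was present in 24.4%, and those between divergent starts, where it was present in 9.20%. Members with the site had a median signal of 80.5, against 83.0 in those without. A pair of members show it in capitals, 50 bp to either side of the summit and outside exons.
T23G4.2, chrIV:13689622-13689722, minus strand: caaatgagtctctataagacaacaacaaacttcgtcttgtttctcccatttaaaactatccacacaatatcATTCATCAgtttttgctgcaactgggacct
C34B4.2, chrV:13081647-13081747, plus strand: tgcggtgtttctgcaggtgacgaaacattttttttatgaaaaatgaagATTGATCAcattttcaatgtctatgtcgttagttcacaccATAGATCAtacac

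The other fixed motifs differed in how their shares at summits stood to those of flanks. GAGAG was present in 271 members (50.4%), in 25.7% of flanks and in 26.0% of open starts. It was also present in 43.5% of divergent peaks, 66.2% of autosomal peaks outside promoter windows and 66.3% of one-sided X peaks. The homeodomain core TAATTA was present in 9.29% of members (interval 6.98 to 12.1%), 8.36% of flanks and 12.3% of open starts. TATAAA was present in 18.8% of members and 17.2% of flanks, TGACAG in 5.39% and 4.93%, TTAATA in 14.3% and 14.96%, TAGTNNAT in 5.58% and 7.99%, and TGACGTCA in 1.301% and 1.58%. The E-box CACGTG was present in 6.88%, 4.55% and 3.25%. The splice acceptor run TTTCAG was present in 24.0% of members, 40.2% of flanks and 30.9% of open starts. How many of these windows overlap gene bodies was not counted. The 8-mers were ranked on chromosomes I and II by their excess at summits, and the 6 highest were then counted in the 308 members on III, IV and V. AGACGCAG, which overlaps CTGCGTCTC on the other strand, was present in 16.1% of members on I and II and in 15.3% on III to V (flanks 1.299%). GAGACGCA and AGAGACGC, which overlap it, were present in 14.9% and 10.7% on III to V, while GAGAGAGA was present in 13.5% on I and II and 7.47% on III to V and AGAGAGAG in 13.04% and 6.82%, with both at 1.46% of flanks on III to V. AAAAAATA was present in 12.7% of members and 12.8% of flanks there.

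GC content rose in a narrow zone at the summits. The median within 100 bp of the summit or window centre was 39.3% at members, 36.3% in flanks and 33.3% at open starts. The mean by 20 bp bins reached 45.4% just gene-side of the summit and fell to 33.1% 150 bp away on the far side. The gene-side slope was T-rich, with 39.4% T at 90 bp against 24.2% A. GC content was higher at the summit than the mean of its own flanks in 318 of the 538 members. It was alike across strength, from 39.8% in the strongest of the 4 groups to 38.3% in the weakest. Members matched divergent peaks at 39.3%, and lay below peaks outside promoter windows at 43.3% and one-sided X peaks at 43.8%.

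**Figure D1:**
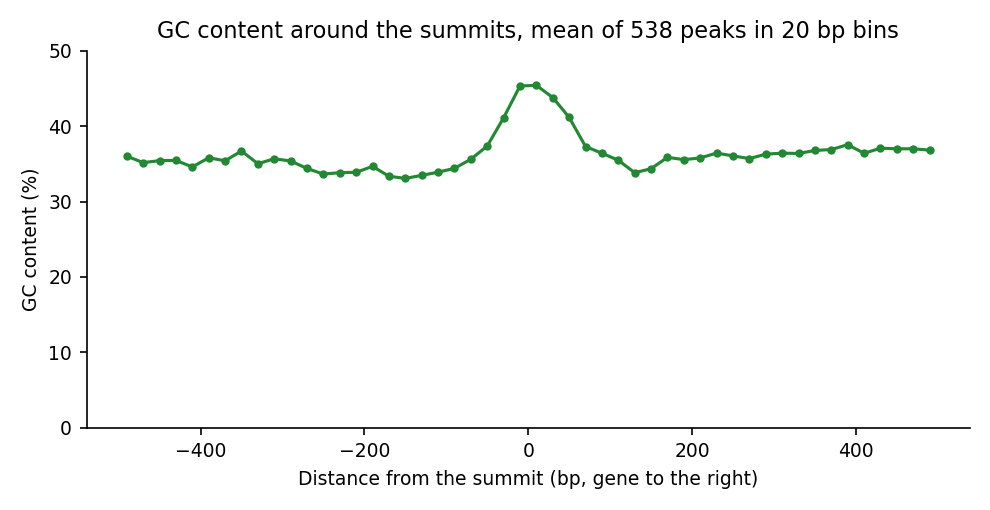
Mean GC content in percent, in 20 bp bins from the summit, over the 538 members turned so that the gene lies to the right. The values rise from about 33.1% on the far side to 45.4% at the summit and fall again within 150 bp.

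The members crowded into the 500 bp before the start. Of the 538 summits, 484 (89.96%, interval 87.1 to 92.4%) lay upstream, on a side that holds 73.3% of one-sided bases, with a median of 269 bp and quartiles of 637 and 119 bp over all members. The fullest 100 bp lay 100 to 200 bp upstream and held 106 members, which is 89.9 per Mb of its bases against 17.98 per Mb over all one-sided positions, or 5.002 times its share of bases. In the first 100 bp downstream the density was 13.02 per Mb, and from 1900 to 2000 bp upstream 3.97 per Mb. The first 500 bp upstream held 323 members, the next 500 bp held 82, the last 1000 bp held 79, and 54 lay at or downstream of the start.

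Signal did not follow position. The median signal was 83.1 in the first 500 bp upstream, 79.4 in the next 500 bp, 82.0 farther out and 82.5 downstream, and Spearman's rho between distance and signal over the 484 upstream members was -0.01. The median ranks ran from 680 to 822 in replicate 1 and from 695 to 716.5 in replicate 2 over these zones. Of the summits, 422 lay in intergenic sequence, 67 in introns, 31 in 5' UTRs, 13 in 3' UTRs and 4 in coding exons. 94 lay in the windows of more than 1 start, where the nearest start named the gene, and 65 lay inside another protein-coding gene.

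**Figure D2:**
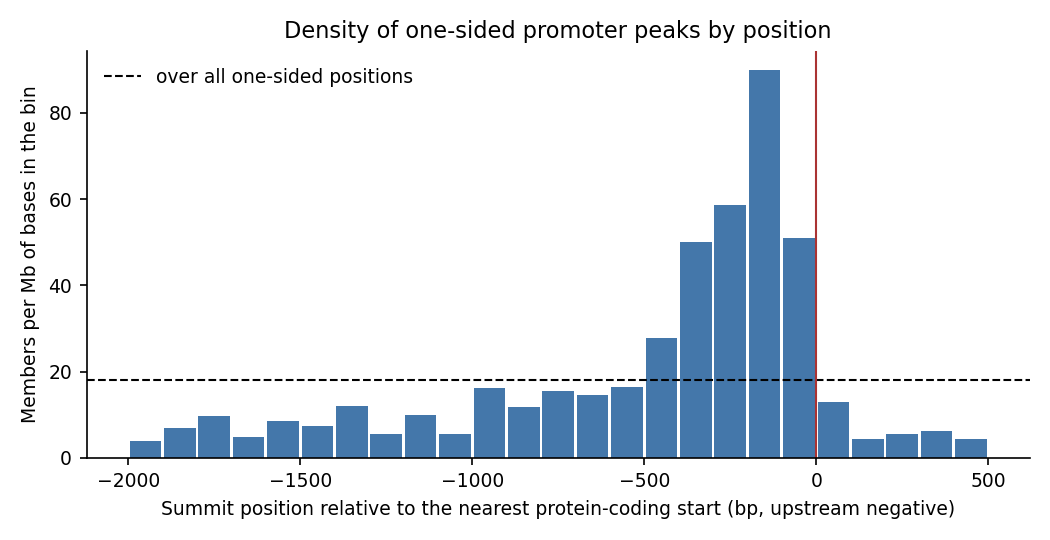
Members per Mb of bases in 100 bp bins of summit position in bp, upstream negative, with the start as a vertical line and the density over all one-sided positions (17.98 per Mb) dashed. The bin from 100 to 200 bp upstream stands highest at 89.9 per Mb.

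Members were found on all autosomes, at the lowest density on V. Per Mb of one-sided bases there were 23.03 members on I, 19.2 on II, 23.95 on III, 16.9 on IV and 11.8 on V, with 116, 114, 109, 97 and 102 members. On V they were 43.04% of the peaks, against 43.01% over all autosomes. The median signal per chromosome stayed between 80.7 and 85.1. The central part of each chromosome, from 0.25 to 0.75 of its length, held 56.9% of members and 54.5% of open starts.

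The members come from a list kept for reproducibility between these replicates, so their presence in both is a description. The signal in the optimal list had a median of 82.7 and ran from 50.06 to 468.4. Among the strongest regions of each replicate, as many as the optimal list holds, 465 members were found in replicate 1 and 428 in replicate 2. Both held 377 (70.1%, interval 66.0 to 73.9%), against 67.4% over all peaks of the optimal list. Support followed the signal of the optimal list, which comes from the same libraries: both replicates held all 134 members of the strongest of the 4 groups and 24 of the 135 in the weakest. Spearman's rho between the replicates' signals was 0.66 over 534 members, as a description.

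**Figure D3:**
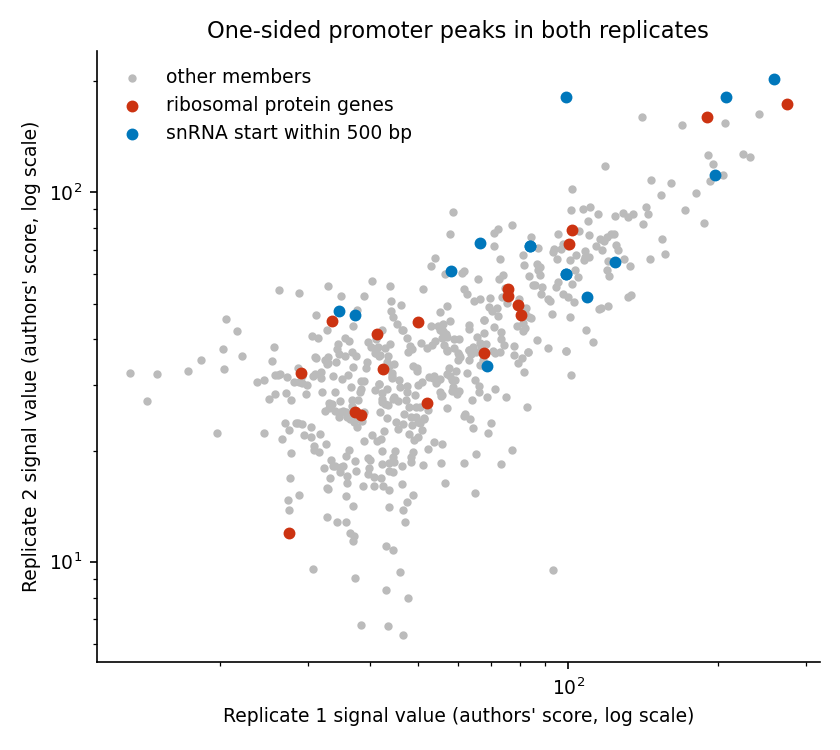
Signal value of the members in replicate 1 against replicate 2, on log axes in the authors' score units, with peaks of cytosolic ribosomal protein genes and peaks within 500 bp of an snRNA start marked. Both marked groups reach the upper right corner, and the ribosomal peaks also extend to weak values.

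The 20 strongest members included genes of the ribosome, the mitochondria and RNA synthesis, and 4 of them, described with the noncoding genes, lay near an snRNA start. At rpl-3, a protein of the large ribosomal subunit, the signal was 274.6 in replicate 1 and 173.7 in replicate 2, ranks 7 and 12, with the summit 285 bp upstream. At eelo-2 it was 240.9 and 162.7, ranks 13 and 14, 236 bp upstream. At rpb-11, a subunit of RNA polymerase II, it was 223.8 and 127.4, ranks 21 and 36, 99 bp upstream. These peaks stood near the top of both lists. At cox-5A, a subunit of cytochrome c oxidase, it was 205.9 and 154.4, 301 bp upstream, and at ddp-1, a small chaperone of mitochondrial import, 231.3 and 125.0, 151 bp upstream. At dld-1, the dihydrolipoamide dehydrogenase of the mitochondrial dehydrogenase complexes, it was 169.5 and 152.6. All of these ranked within the top 50 of both replicates.

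The other members among the 20 had varied roles. The peak at cdk-5, a cyclin-dependent kinase, was at 204.3 and 111.1 and lay in an intron of the neighbour kel-3. The peak at C47E8.4, at 191.1 and 126.4, lay in an intron of the overlapping hsp-90 gene model. The peak at egl-30, the Gq alpha subunit, was at 140.4 and 159.9, 60 bp upstream. dnj-9, a J-domain co-chaperone, was at 192.6 and 107.4, and eif-3.C, a translation initiation factor, at 180.2 and 99.4. C34C12.8 was at 195.5 and 119.2, and W03F8.4 at 171.7 and 89.7. ttr-17, a transthyretin-like gene, was the farthest of this group, 1479 bp upstream, at 187.3 and 82.4.

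Gene lists were read against the share of genes that hold a member. The 538 peaks named 521 genes, which is 3.02% of the 17242 autosomal protein-coding genes. Among the 12167 genes with an open start, 486 had a member (3.99%). The 24 lists held 100 of the 521 genes, and 421 were in none. No list was tested. Genes of a list are not independent draws, so an interval above or below the background is a description only. Some list genes were named by a summit nearer to an snRNA or snoRNA start. Among them were snr-4, eif-2Bgamma, mrps-28, pas-5, cox-6A and col-94, which the counts below include.

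Among open genes, cytosolic ribosomal protein genes had the highest share of the 24 lists, with a member at 17 of 26 (65.4%). Over all autosomal ones it was 18 of 80 (22.5%, interval 13.9 to 33.2%), beside 22.7% for mitochondrial import and folding. Most ribosomal protein genes lack an open start, and a further 15 of the 80 held a divergent peak. Signals ranged from 60.4 at rpl-19 to 452.9 at rpl-3, and 17 of the 18 summits lay 153 to 454 bp upstream. rpl-35 had signals of 190.2 in replicate 1 and 160.0 in replicate 2, rpl-24.2 of 101.7 and 78.9, and rps-28 of 100.3 and 72.3. The weakest, rpl-19, had its summit 262 bp downstream of the start and ranked 2100 and 7371, outside the strongest regions of either replicate. The open genes without a member were rla-0, rpl-13, rpl-14, rpl-16, rpl-27, rpl-37, rpl-42, rps-21 and rps-7, and none held another optimal peak, although the pooled list had a weaker region at 7 of them, the best at rank 1567 near rps-21.

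Mitochondrial genes also held members. Over the 4 mitochondrial lists a member lay at 22 of 172 genes (12.8%, interval 8.19 to 18.7%) and at 21 of the 90 open ones (23.3%). Mitochondrial ribosomal proteins contributed 9, led by mrpl-28 at 153.4 and 98.5 in the replicates. Respiratory chain genes contributed 6, with cox-5A above and nduf-11, a complex I subunit, at 115.4 and 48.2. Import and folding genes contributed 5 of 22, among them timm-17B.1 of the inner membrane translocase at 115.9 and 74.6, and tin-9.1 at 79.8 and 49.8. Metabolic enzymes contributed dld-1 and the fumarase gene fum-1. The replicates differed on the weaker ones: fum-1 ranked 1691 and 12707, tin-13 11952 and 1137, and mrps-28 7129 and 803.

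Genes of protein and RNA synthesis were also frequent. Translation factors and tRNA synthetases had a member at 8 of 75 genes (10.7%), with eif-3.C first and eif-3.B at 121.9 and 77.3. Splicing factors and cyclophilins had one at 9 of 80 (11.3%), with snrp-3 at 107.0 and 89.95, cyn-3 at 86.5 and 63.8, and the Sm protein gene snr-4 at 83.8 and 71.5. The snr-4 summit lay 339 bp from the start of snr-4 and 56 bp from an snRNA start. RNA polymerases and general transcription factors had one at 6 of 68 (8.82%). Of these rpb-11 stood far above the next, taf-8 at 57.0 and 37.1, and ama-1, the large subunit of RNA polymerase II, was near the bottom of the optimal list with a signal of 50.56. eif-2Bdelta showed the replicates apart, with 93.1 and rank 228 in replicate 1 and 9.50 and rank 12898 in replicate 2.

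Folding, division and transport genes held members too. Chaperones and co-chaperones had a member at 5 of 53 genes (9.43%), including hsp-1, the constitutive Hsp70, at 109.4 and 83.8. DNA replication, kinetochore, cdc and cdk genes had one at 5 of 78, including pcn-1, the sliding clamp PCNA, at 113.5 and 71.4 and knl-3 of the kinetochore at 84.9 and 56.0. Nuclear transport and nuclear pore genes had one at 4 of 40 (25% of the 16 open ones), led by the importin alpha gene ima-2 at 84.3 and 75.9. Membrane traffic genes had one at 6 of 98, led by the coat protein gene sec-24.1 at 120.7 and 59.5. The proteasome list had one at 2 of 39, rpn-11 and pas-5, the latter with its summit 91 bp from a snoRNA start. Of these lists only chaperones had an interval that did not include the background of 3.02%, and its lower limit was close to it (3.135 to 20.66%). The interval included 3.02% for the replication list (2.11 to 14.3%) and nuclear transport (2.79 to 23.7%). It also did for membrane traffic (2.28 to 12.85%) and the proteasome (0.627 to 17.3%). Histone genes had none of 75, an upper limit of 4.80% that includes the background. Of the 75 histone genes only 10 had an open start, and 5 held a divergent peak.

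At 3 of the 4 muscle genes with a member the summit lay over 1000 bp upstream. Body wall muscle genes had a member at 4 of 28 (14.3%, interval 4.03 to 32.7%) and at 15.4% of open ones. myo-3, a myosin heavy chain, was at 87.1 and 61.6 with its summit 1350 bp upstream, pat-4, the integrin-linked kinase, at 51.4 and 24.4, 1555 bp upstream, and unc-54, another myosin heavy chain, at 33.8 and 18.2, 1655 bp upstream. unc-45, a myosin chaperone, was at 39.7 and 19.1, 328 bp upstream. Both replicates held 2 of the 4 among their strongest regions.

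The lists tied to the known roles of LIN-39 were short. Vulval and ventral epidermal genes had 0 of 29 (upper limit 11.9%), ventral cord motor neuron genes 0 of 28 (12.3%) and Hox and TALE genes 0 of 9 (33.6%). The limits of these 3 lists include the background of 3.02%, so their counts of 0 cannot show a share below it. Wnt pathway and Q neuroblast genes had 2 of 35 (5.71%, interval 0.700 to 19.2%), pig-1, a kinase of asymmetric division, at 54.8 and 43.4, and the beta-catenin gene wrm-1 at 49.1 and 21.4. In 2 large families the whole interval lay below the background: chemoreceptors had 1 of 1207 (0.0829%, interval 0.00210 to 0.461%), srx-125 with a signal of 50.58, and C-type lectins 0 of 237 (upper limit 1.54%). In others it included the background. Nuclear hormone receptors had 5 of 247 (2.02%, interval 0.661 to 4.66%), led by nhr-119 at 101.6 and 102.1 and nhr-87 at 96.7 and 70.4. Cuticle collagens had 3 of 146 (interval 0.426 to 5.89%), and neuropeptides and insulins 0 of 107 (upper limit 3.39%).

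**Figure D4:**
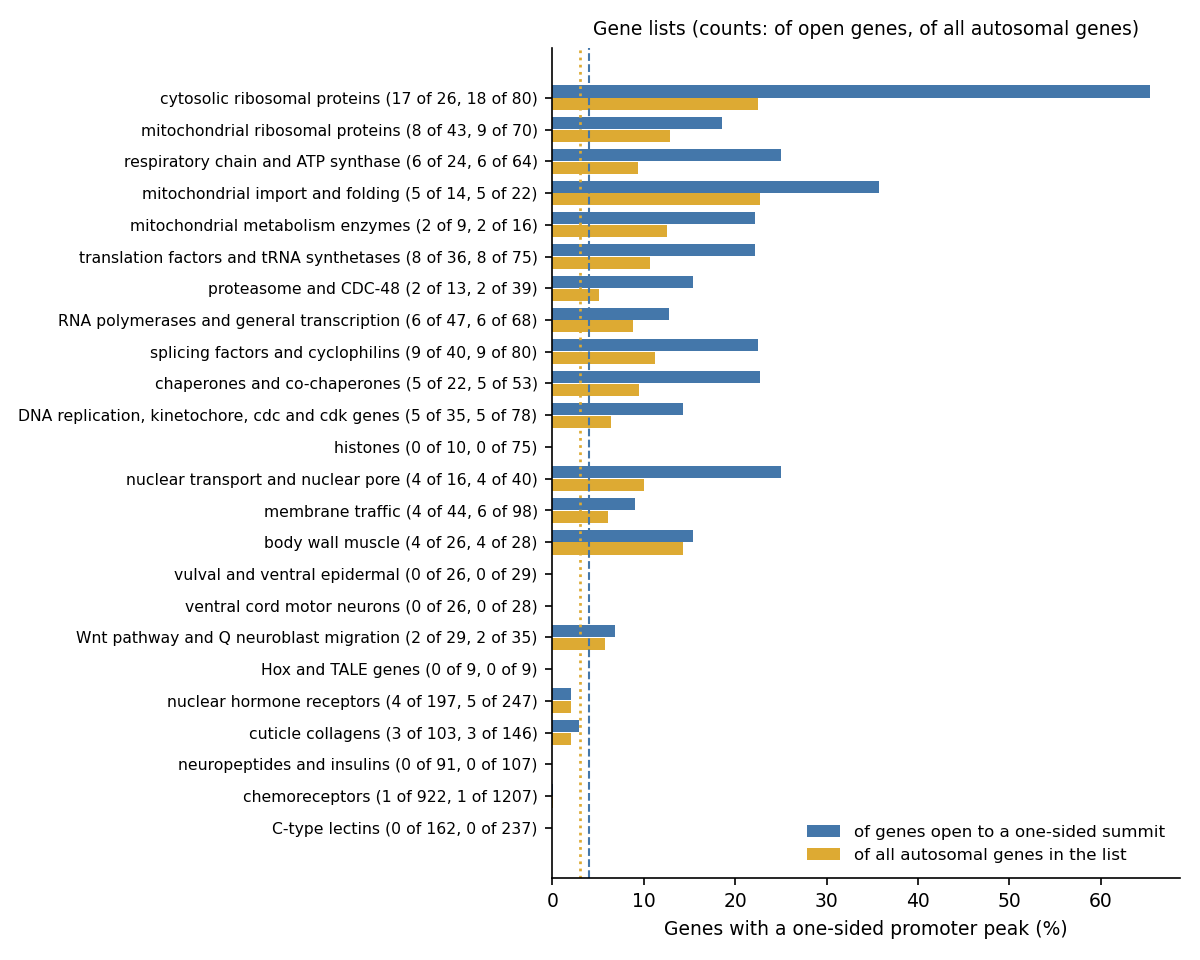
Percent of genes with a one-sided promoter peak in each of the 24 gene lists, out of open genes and out of all autosomal genes, with the shares over all open and all autosomal genes as dashed (3.99%) and dotted (3.02%) lines. Cytosolic ribosomal protein genes reach 65.4% of open genes, and the vulval, motor neuron, Hox, histone, neuropeptide and lectin lists stand at 0.

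A close same-strand gene followed some of the genes with a member, a share set beside that of open genes without a test. Of the 521 genes, 164 (31.5%, interval 27.5 to 35.7%) had the next same-strand gene within 500 bp of their end, against 2177 of the 12167 open genes (17.9%) and 19.3% of all autosomal genes. A close same-strand gene before them was found for 25.1%, against 24.2% of open genes. This look was chosen after values had been seen, and closeness is an arrangement, not an operon annotation. The strongest of them were eelo-2, followed after 336 bp by gtf-2E1, rpb-11, followed after 114 bp by W01G7.4, and ddp-1, followed after 47 bp by ttc-7. Peaks of followed genes lay closer to the start, at a median of 222 bp against 307 bp, with a like median signal of 82.0 against 83.1.

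For some members the nearest protein-coding gene is only the label that the rule gives. A tRNA, snoRNA, snRNA or miRNA start lay within 500 bp of the summit at 41 members (7.62%). Of these, 22 were near a snoRNA gene, 15 near an snRNA gene and 4 near a tRNA gene, and no member had an miRNA start within reach. The share for the same kinds of start was 0.929% at positions 200 bp upstream of open starts. Those positions are fixed, whereas these members lay at varied distances from the protein-coding start. At 38 of the 41 the noncoding start was nearer than the protein-coding one. Members near an snRNA gene had a median signal of 155.4, those near a snoRNA gene 82.1 and those near a tRNA gene 56.8.

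The strongest member of all belonged to this group. The peak assigned to egg-5, at 258.2 in replicate 1 and 203.3 in replicate 2, lay 585 bp from the start of egg-5 and 32 bp from that of sls-2.4, an SL2 RNA gene. The peak assigned to H41C03.3, at 207.4 and 181.6, lay 939 bp from its start and 27 bp from sls-2.1, and that assigned to C17C3.24, at 196.7 and 111.2, lay 1911 bp from its start and 98 bp from sls-2.2. The SL2 RNA gene was the nearer start in each. A second summit in the window of H41C03.3, 172 bp from sls-2.1, overlapped the same region of replicate 2 as the first. The peak at cmtr-1, at 146.5 and 107.7, lay 78 bp from a snoRNA start.

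The 15 summits near snRNA starts belonged to 11 snRNA genes, and the 3 on chromosomes II to V with no exon in the 100 bp before their start are shown, read on the strand of the snRNA gene. The capitals mark ATGTCTG, a run the 3 share that was picked after they were seen.
sls-2.1, chrII:5844765-5844864, plus strand: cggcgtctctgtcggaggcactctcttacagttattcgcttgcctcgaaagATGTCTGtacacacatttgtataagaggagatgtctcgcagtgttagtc
snRNA gene in the window of col-94, chrIII:10989579-10989678, plus strand: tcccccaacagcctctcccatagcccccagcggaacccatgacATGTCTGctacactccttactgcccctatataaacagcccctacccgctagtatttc
snRNA gene in the window of cox-6A, chrIII:5080899-5080998, minus strand: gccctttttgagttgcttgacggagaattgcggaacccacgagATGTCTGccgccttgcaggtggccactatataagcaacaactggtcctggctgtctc

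ATGTCTG, sought on the strand of the gene in the 100 bp before the start, was present at none of the other 8 snRNA genes near a member, at 2 of the 115 other autosomal snRNA genes and at 0.481% of autosomal protein-coding genes. The summits lay 27, 71 and 45 bp before these 3 starts. The snRNA name in the window of col-94 is shared by 14 gene models and that in the window of cox-6A by 3, so they were located by gene identifier.

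Beside the other classes the members were intermediate in strength. The median signal was 82.7 in the members, 90.1 in divergent peaks, 72.1 in autosomal peaks outside promoter windows and 74.5 in one-sided X peaks. In replicate 1 these medians were 51.2, 56.8, 45.4 and 46.8, and in replicate 2 they were 35.2, 34.8, 33.7 and 31.9, so divergent peaks stood above the members in replicate 1 and not in replicate 2. The quartiles of the members ran from 61.4 to 121.8 and overlapped those of every other class. Both replicates held 70.1% of members, 71.4% of divergent peaks, 60.1% of peaks outside windows and 62.9% of one-sided X peaks among their strongest regions.

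Of the 538 members, 88 were among the strongest regions of replicate 1 only, 51 of replicate 2 only and 22 of neither. The largest rank differences in each direction were at weak members. utp-20 ranked 843 in replicate 1 and 26909 in replicate 2, Y104H12D.2 929 and 24744, and prx-19 1123 and 24626. In the other direction ciao-2B ranked 14537 and 835, tin-13 11952 and 1137, and snpc-3.4 10640 and 851. All 6 had signals of 50.13 to 58.38, near the bottom of the list. A stronger member, eif-2Bdelta, with a signal of 101.7, also ranked far apart, at 228 and 12898. Another 4 members, at C46F11.4, T07A5.1, ZK418.5 and hlh-11, overlapped no region of replicate 2, and all 4 lay on III.

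More than 1 member lay in the window of 16 genes. C34B4.2 had 3, with signals of 119.1, 99.6 and 110.3, of which the first pair overlapped the same region in both replicates. cbp-1, a homolog of the coactivator p300, had one 910 bp upstream at 149.0 and one 115 bp upstream at 54.6. ttr-17 had a second peak 186 bp upstream at 80.9, and F54F2.6 had one 1455 bp upstream and one 474 bp downstream. Close pairs such as those at snr-4 and F38E11.9 overlapped 1 region per replicate and are not separate measurements.

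The edges of the rule cut through strong peaks as well as weak ones. Just inside the upstream edge lay peaks at hif-1, 1951 bp upstream with a signal of 183.8, at sup-26 with 149.8 and at prk-1 with 157.6, and just outside it peaks nearest to Y54G2A.72 with 53.3, Y44A6C.1 with 59.2 and rpy-1, 2036 bp upstream with 154.9. At the downstream edge the peak at cpz-1, 500 bp downstream with 157.9, was inside with F58D5.5 at 52.6 and F54F2.6 at 96.99, and F21D12.3, 517 bp downstream with 143.1, was outside with ins-13 at 106.3 and W06H8.6 at 58.8. At the limit for divergent starts unc-69, tceb-3 and hmg-6 were members with second starts 2033 to 2045 bp away, while casc-3, nmt-1 and tba-2 at 1979 to 1998 bp were not.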

How the data were processed

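Transcription factor ChIP-seq region lists of 2 replicates were used on the ce11 build. Per the file notes deposited with each sample, the lists came from the replicates' alignments and a control alignment, and the optimal list was kept on reproducibility between replicates. Which aligner and peak caller were used is not given in the sources used here. Each region's deposited signal score is the authors' value with no stated scale, and the deposited summit offset is another number per region, in bp. The scales differ between lists, so replicates were compared by ranks and overlaps of at least 1 bp. Depth is unknown.

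Summits were placed on protein-coding starts of Ensembl release 115 (WBcel235, the same assembly as ce11), counted from 1. Read from 0, the rule gives 537 members. Windows of 201 bp at summits and open starts were searched on both strands. The placing of summits and the motif search were run on planted cases made from the same gene starts and the same site. The outcome followed largely from how these cases were made, so it is no independent test. Python 3.11.15, numpy 2.4.6, pandas 2.3.3, scipy 1.17.1 and matplotlib 3.10.9 were used. Intervals are exact binomial (Clopper-Pearson) at 95% and describe counting of peaks or genes, not sequencing error. Peaks are not replicates, so no class difference was tested.

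The members and lists were chosen with earlier results of these data known. Names of 3 lists (splicing factors and cyclophilins, DNA replication with kinetochore, cdc and cdk genes, chaperones) were reworded after the hits were seen, with their genes kept. Genes were named by rule: the 20 strongest, up to 4 per list, the largest replicate differences, genes with several peaks, the edges, and the strongest near noncoding starts. Other genes, and the looks at close gene runs, noncoding starts, chromosome centres, CGCCAGCA, CTGCGTCTC, GGTCTC and ATGTCTG, were added after values were seen. Alternatives tried were each replicate alone, the stronger part of the list, other windows and divergent limits, every transcript start, other motif windows and stricter overlaps. One of the 20 strongest members is not reported here.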

Additional observations from a re-analysis of the deposited data

How the results depend on the processing

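Of 92 alternatives over 12 results, 86 stayed within set limits. The limits were the 95% binomial interval for shares, the 95% interval of the median position (236 to 306 bp) and 1.5 times for counts. With the stronger 0.5 of the optimal list there were 280 members, 11 mitochondrial genes with a member and CGCCAGCA in 10% of members. The first and second hold fewer peaks by construction. Ribosomal protein genes with a member fell there from 18 to 12, exactly at the limit of 1.5 times, and were counted as within it. With a window of 1000 bp upstream the median position was 211 bp, since farther summits were left out. TGATNNAT was present in 9.11% of members within 50 bp and in 29.6% within 200 bp of the summit, where the flanks held it in 7.25% and 26.9%. With the strongest regions of 1 replicate alone, as many as the optimal list holds, there were 539 to 543 members, 87.2 to 88.2% upstream, a median position of 270 to 284 bp, 16 to 17 ribosomal protein genes, 17 to 23 mitochondrial genes, TGATNNAT in 15.2 to 15.3%, CGCCAGCA in 6.12 to 6.63%, CTGCGTCTC in 11.97 to 14.5% and 29.0 to 30.8% of genes followed by a same-strand gene. Without the 38 members nearer to a noncoding start, an alternative chosen after seeing the data, 500 remained, with CGCCAGCA in 7.20%. Mitochondrial genes with a member then fell from 22 to 20, and ribosomal protein genes stayed at 18. No paired analysis was possible because there is 1 group. Unknown depth limits what the absence of a peak can show.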
